A study of Mus musculus with 6 samples.

Results

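Open chromatin at genes of the ATP-dependent chromatin remodellers was compared between 2 kinds of macrophage in mouse brain tumours, microglia (MG), the brain's own macrophages, and bone marrow derived macrophages (BMDM). The members were selected by gene symbol (the Smarc, Arid1 and Arid2, Actl6, Dpf, Ss18, Bcl7, Bcl11, Chd1 to Chd9 and Ino80 names with Pbrm1, Brd7, Brd9 and Phf10), which took 44 of 18755 annotated genes and 356 of 92864 peaks. The set was proposed because Smarcd3 had a strong peak in MG in this same comparison. Values of Smarcd3 were therefore used in choosing the set and are given as a description with no test, and the shares of other members that differed are set beside those of all genes without being read as a property of the set. Smarcc2, Smarcd2, Ss18l1 and Brd9 have no row under their own symbol and are not analysed here as genes. The symbols also took Ss18l2 and Ino80dos, the name of an RNA on the strand opposite Ino80d, for which no remodelling role is assumed.

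The mice were wild type (WT) and carried orthotopic, isogenic tumours of the glioma line SB28. MG were F4/80+ CD11b+ CD45lo LY6Clo/- LY6G- CD49dlo/- cells, and BMDM were F4/80+ CD11b+ CD45+ LY6Clo/- LY6G- CD49dhigh cells, so both groups came from tumour-bearing brain and neither from healthy tissue. ATAC-seq, in which the Tn5 transposase inserts adapters into accessible DNA, was run on 3 libraries per group. The labels do not say whether a library came from 1 animal or from pooled animals, so the p-values speak for the spread of these 6 libraries, part or all of which may be technical.

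Chromatin remodellers use ATP to slide, evict or exchange nucleosomes. The BAF and PBAF complexes share an ATPase (Smarca2 or Smarca4) and a core around which interchangeable subunits are fitted, and cell types are known for their choice among these: Actl6b, Dpf1, Dpf3 and Ss18l1 belong to the neuronal form, and Smarcd3 is best known from heart and muscle. ISWI ATPases space nucleosomes, Chd3 to Chd5 are the ATPases of the deacetylase complex NuRD, and the INO80 complex moves nucleosomes at promoters and at sites of DNA repair.

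Promoter sequences of 6 members are printed because these genes, or their closest paralog, are described at length below: Smarcd3 with Smarcd1, Dpf1 with Dpf2, Chd4, and Bcl11b. No call rests on a peak over the printed windows of Chd4 and Bcl11b. Each is 300 bases of the gene's strand, 250 before and 50 after a RefSeq start site (GRCm38.p6, the same assembly as mm10). They lie at chr5:24601953-24602252 (minus strand, Smarcd3), chr15:99702037-99702336 (plus, Smarcd1), chr7:29303755-29304054 (plus, Dpf1), chr19:5912822-5913121 (minus, Dpf2), chr6:125095731-125096030 (plus, Chd4) and chr12:108003365-108003664 (minus, Bcl11b). Capitals mark matches on either strand to the GC box (GGGCGG), the CCAAT box (CCAAT), the ETS core (GGAAGT) and a YY1-type motif (AAGATGG); a CRE (TGACGTCA) and an NRF1-type motif (GCGCATGC) were also searched and had no match in these 6.
Smarcd3: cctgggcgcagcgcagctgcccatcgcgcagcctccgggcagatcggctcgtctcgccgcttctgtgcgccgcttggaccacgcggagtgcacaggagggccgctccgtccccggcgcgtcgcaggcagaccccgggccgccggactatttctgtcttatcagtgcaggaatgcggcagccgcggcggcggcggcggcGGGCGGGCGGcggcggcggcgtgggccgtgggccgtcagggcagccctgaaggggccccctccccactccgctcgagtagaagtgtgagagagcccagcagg
Smarcd1: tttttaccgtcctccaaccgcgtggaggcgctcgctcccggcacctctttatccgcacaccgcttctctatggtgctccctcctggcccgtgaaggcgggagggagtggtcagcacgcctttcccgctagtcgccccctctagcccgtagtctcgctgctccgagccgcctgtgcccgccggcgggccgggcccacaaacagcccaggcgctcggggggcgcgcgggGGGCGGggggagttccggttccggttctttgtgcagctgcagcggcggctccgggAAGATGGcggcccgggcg
Dpf1: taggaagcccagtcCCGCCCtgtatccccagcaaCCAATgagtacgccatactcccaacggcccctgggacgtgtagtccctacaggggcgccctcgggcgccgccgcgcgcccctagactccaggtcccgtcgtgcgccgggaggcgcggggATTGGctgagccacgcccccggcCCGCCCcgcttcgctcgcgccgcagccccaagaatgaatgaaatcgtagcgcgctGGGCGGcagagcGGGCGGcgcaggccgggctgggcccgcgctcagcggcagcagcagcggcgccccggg
Dpf2: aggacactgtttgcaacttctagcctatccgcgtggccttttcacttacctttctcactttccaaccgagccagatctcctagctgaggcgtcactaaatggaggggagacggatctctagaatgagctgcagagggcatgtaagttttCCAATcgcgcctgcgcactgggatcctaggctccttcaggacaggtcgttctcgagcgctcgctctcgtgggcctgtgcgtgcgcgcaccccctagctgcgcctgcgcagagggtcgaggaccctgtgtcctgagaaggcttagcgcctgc
Chd4: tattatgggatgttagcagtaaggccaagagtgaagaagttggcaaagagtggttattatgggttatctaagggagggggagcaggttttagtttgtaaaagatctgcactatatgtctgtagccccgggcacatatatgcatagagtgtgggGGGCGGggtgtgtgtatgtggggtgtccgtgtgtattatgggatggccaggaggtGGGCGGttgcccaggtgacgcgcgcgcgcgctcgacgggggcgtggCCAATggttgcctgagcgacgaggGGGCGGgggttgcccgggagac
Bcl11b: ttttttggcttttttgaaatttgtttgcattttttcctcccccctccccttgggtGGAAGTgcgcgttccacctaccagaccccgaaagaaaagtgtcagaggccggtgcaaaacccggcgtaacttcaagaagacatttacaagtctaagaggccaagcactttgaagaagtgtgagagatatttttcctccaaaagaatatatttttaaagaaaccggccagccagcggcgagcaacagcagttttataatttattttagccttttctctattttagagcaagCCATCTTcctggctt
The Smarcd3 window held 2 GC boxes that share bases at -52 to -43, counted from the start base as 0. The Dpf1 window held 4 GC boxes and 2 CCAAT boxes, and that of Dpf2 held 1 CCAAT box and no GC box. The Chd4 window held 3 GC boxes and 1 CCAAT box. The Bcl11b window had a GC content of 43.0% with 9 CpGs, against 74.7% and 40 CpGs in Smarcd3, and it alone of the 6 held an ETS core, at -195 to -190.

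Member promoters were rich in GC and CpG. RefSeq windows were found for 34 members (41 windows), and 10 members had none. Their median GC content was 64.7% and their median CpG number 25, against 52.7% and 7 over all 32817 windows. A GC box was found in 34 of 41 windows (82.9%), against 35.6% of all windows. An NRF1-type motif stood in 9.76% against 2.71%, a YY1-type motif in 12.2% against 6.34%, and a CCAAT box in 36.6% against 37.4%. The ETS core was found in 9.76% against 23.8%, a PU.1-type ETS motif (GAGGAA, which can share bases with the ETS core) in 24.4% against 28.3%, and a TATA box (TATAAA) in 2.44% against 13.6%. Shares for AP-1 (TGANTCA, 4.88% against 7.81%), E-box (CACGTG, 9.76% against 7.15%), C/EBP-type (TTGCNNAA, 12.2% against 10.8%) and RUNX (TGTGGT, 14.6% against 16.8%) motifs were also taken on both strands, and a CRE was in 0 of 41 against 1.79%. These matches describe letters in a window and are no evidence of binding.

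Reads in peaks ranged from 12531808 to 23601865 in MG and from 4910448 to 19727511 in BMDM, with a median of 20 to 90 reads per peak. Values are normalized counts, reads divided by the authors' library size factor, and 3 reads correspond to between 1.64 (MG 2) and 5.95 (BMDM 1) of them. These limits cover counting error only. MG 1 stood apart from MG 2, with a correlation of 0.756 over peaks, against 0.892 and 0.935 for the other MG pairs and 0.905 to 0.937 within BMDM. The sort was set beside marker lists. Calls higher in BMDM were made for 9 of 18 monocyte and macrophage genes and for 0 of 20 microglial genes, and calls higher in MG for 0 and 4. The first list includes Itga4, the gene of CD49d, and Ly6c2, so it is not independent of the sort. Of 9 tested neutrophil genes, 2 were called higher in BMDM and 0 in MG. Groups did not overlap for 7 of them with BMDM higher, against 6.87% of all genes. A difference in bulk libraries cannot tell fewer cells of a kind from less open chromatin per cell.

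Genes and peaks were tested with limma on log2(normalized count + 1): a gene as the sum of those annotated peaks that lie at most 100 kb from its start, and each peak alone. Differences are BMDM minus MG in log2, relative to the median gene (-0.27) or the median peak (-0.14), so negative values are higher in MG. The adjusted p (Benjamini-Hochberg over all features, threshold 0.05) tests the difference before that shift. Of the 43 members other than Smarcd3, Dpf1 and Chd4 were called higher in MG and 0 were called higher in BMDM. Over all genes 3.51% were called higher in MG and 2.14% higher in BMDM. At an unadjusted p under 0.05, 8 members were higher in MG and 1 was higher in BMDM. The share of all genes at that level is not given here, and the median gene itself leaned to MG. No lean of the members is therefore read from these numbers. Groups did not overlap for 13 members with MG higher and for 0 with BMDM higher, against 21.5% and 6.87% of all genes, and they overlapped for 30. Without MG 3, BMDM 1 or BMDM 2 no member was called, and without MG 2 the numbers were 2 and 1. Over all 18246 genes the calls higher in MG and in BMDM were 304 and 189 without MG 3. They were 102 and 79 without BMDM 1, 0 and 0 without BMDM 2, and 651 and 611 without MG 2. The median relative difference of the 43 was -0.03, from -0.94 (Dpf1) to 1.34 (Bcl11b).

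**Figure D1:**
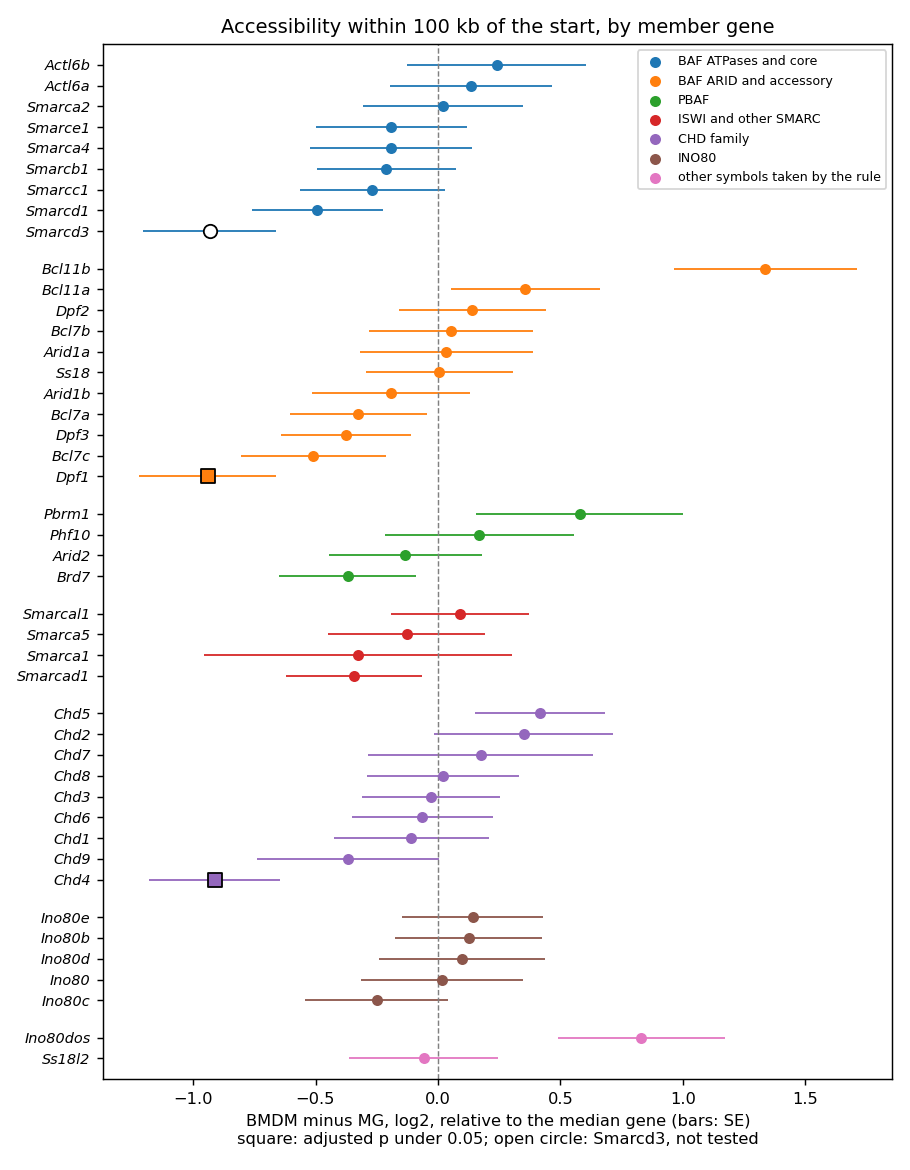
Difference of each of the 44 member genes (BMDM minus MG, log2, relative to the median gene) with its standard error, grouped by role, from 3 libraries per group. Dpf1 (-0.94), Chd4 (-0.91) and Smarcd3 (-0.93, open circle, not tested) lie to the left, Bcl11b (1.34) lies to the right, and most others lie within 0.5 of 0.

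Among peaks, 12 of the 327 that were tested outside Smarcd3 passed the threshold. Peaks called higher in MG numbered 4, in Dpf1, Chd4 and Chd3, against 1.54% of all peaks. Peaks called higher in BMDM numbered 8, in Chd7, Bcl11b, Arid1b and Ss18, against 5.33% of all peaks. At an unadjusted p under 0.05 the numbers were 31 and 35, for which the share of all peaks is not given here. Of 350 member peaks outside Smarcd3, 42 did not overlap with MG higher and 44 with BMDM higher, against 12.3% and 16.7% of all peaks. The authors' deposited table called 18 member peaks higher in MG and 20 higher in BMDM at an adjusted p under 0.05, in 18 genes, against 5.38% and 9.06% of all peaks. Each of the 12 calls was lost without MG 3, BMDM 1 or BMDM 2, where no peak of the whole table passed and the smallest adjusted p was 0.0767, 0.132 and 0.186. Leaving out BMDM 3 gave 2 and 2 calls, leaving out MG 2 gave 9 and 19, and leaving out MG 1 gave 38 and 24. Over all 87944 tested peaks the calls higher in MG and in BMDM were 413 and 2030 without BMDM 3. They were 2528 and 8190 without MG 2, and 11278 and 10603 without MG 1.

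**Figure D2:**
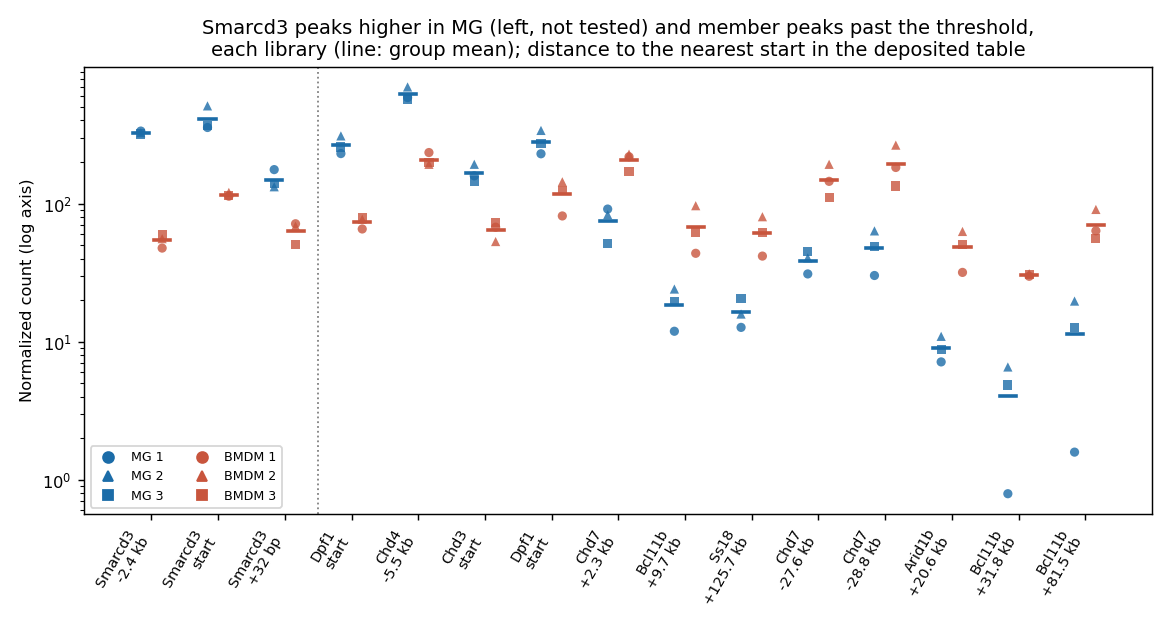
Normalized counts (log axis) of the 3 Smarcd3 peaks that were higher in MG, left of the dotted line and not tested, and of the 12 member peaks with an adjusted p under 0.05, in each library with the group mean as a line (3 libraries per group). The groups do not overlap at any of the 12, and the 3 Smarcd3 peaks were shown because their groups do not overlap. The MG values of Bcl11b fall as low as 0.793 in MG 1.

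Smarcd3 encodes an interchangeable Smarcd subunit of the BAF core, which link the complex to transcription factors. Its 6 peaks summed to 1134, 1296 and 1077 in MG 1 to 3 and to 480.1, 598 and 451 in BMDM 1 to 3. Every MG library was above every BMDM library, with means of 1169 ± 114 and 510 ± 77.6 (SD, n = 3) and a relative difference of -0.93. As a ratio of means, MG was 2.29 times BMDM.

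The 6 peaks of Smarcd3 did not move alike. The peak 2429 bases upstream of the nearest start (chr5:24604441-24605136) held 335, 326 and 319 in MG and 47.6, 55.7 and 59.8 in BMDM, a relative difference of -2.44. The peak over the printed promoter (chr5:24601745-24603416) held 355, 509 and 368 against 113, 120.4 and 114, or -1.66. Both were high in all MG libraries and far from overlapping. A smaller peak at chr5:24598520-24598906 gave -1.09, with 176, 132 and 139 against 71.4, 68.6 and 50.7. The peak at a start further into the gene (chr5:24596608-24597714) was about as high in both groups, with 260.2, 287 and 233 in MG and 238, 319.9 and 170.3 in BMDM, and the groups overlapped. The remaining 2 peaks, at and beyond the 5′ end of the longest gene model, held at most 36.2 in any library. The 3 peaks that were higher in MG lay inside the gene model, 19.7 to 25.7 kb from its 5′ end.

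**Figure D3:**
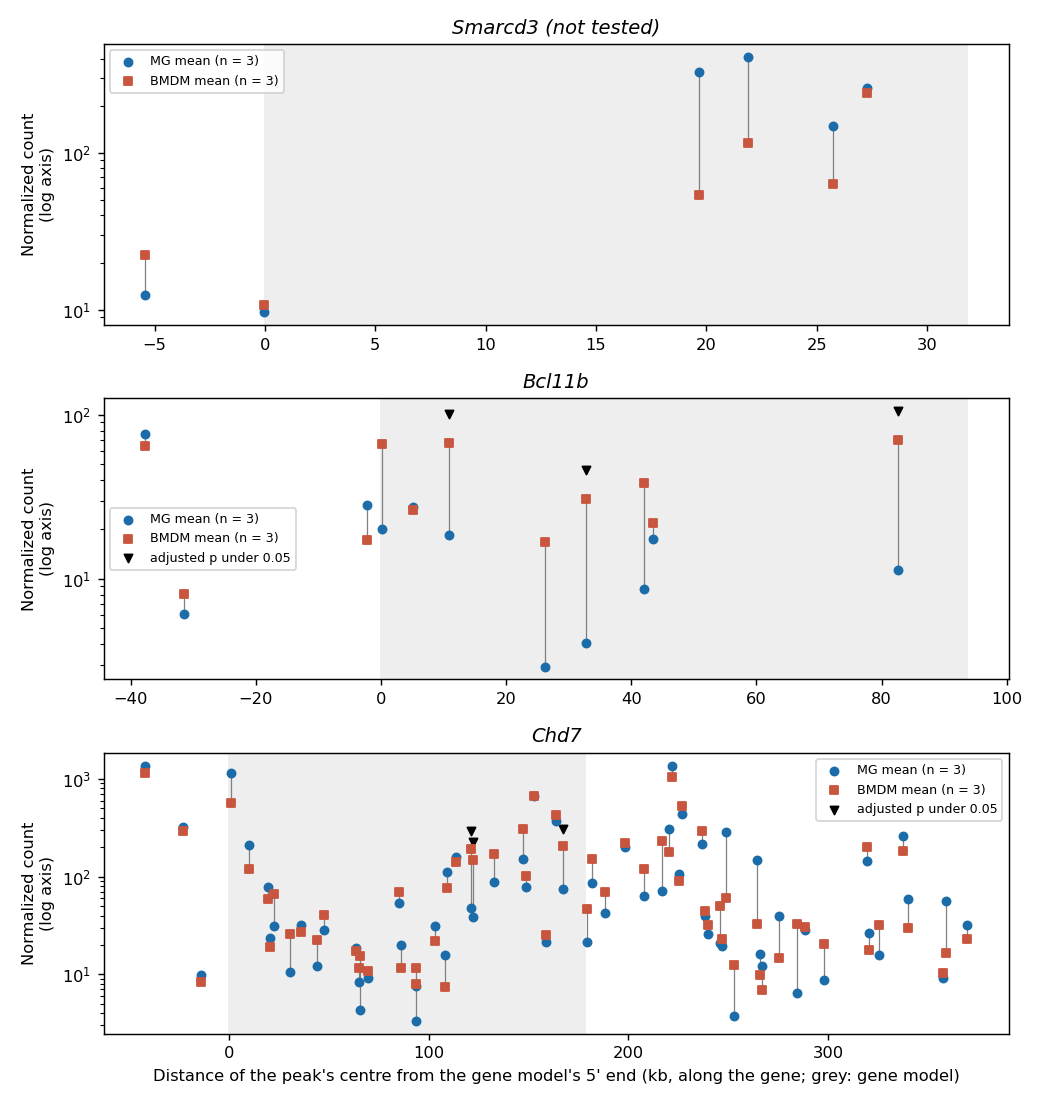
Mean normalized count (log axis, n = 3 per group) of each peak of Smarcd3, Bcl11b and Chd7 against the distance of its centre from the 5′ end of the RefSeq gene model in kb, with the model in grey and a grey line joining the MG and BMDM means. In Smarcd3 the gap opens at 19.7 and 21.9 kb and closes at 27.3 kb. In Bcl11b the BMDM means are above the MG means at the marked peaks inside the gene. In Chd7 the marked peaks are higher in BMDM, and the means of other peaks lie apart in either direction or are level.

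Smarcd1, the paralog of Smarcd3 in the table, held 951, 904 and 897 in MG and 625, 559 and 451 in BMDM. The groups did not overlap, but at a relative difference of -0.49 ± 0.27 (SE) the adjusted p was 0.106. Its start-site peak alone gave -0.46 with an adjusted p of 0.293. The ATPases Smarca4 (-0.19) and Smarca2 (0.02) had overlapping groups and did not pass the test, with adjusted p values of 0.436 and 0.685.

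The other core subunits did not pass. Smarcc1, a scaffold subunit, held 1806, 1708 and 1586 in MG and 1385, 1312 and 880.4 in BMDM, with no overlap, a relative difference of -0.27 and an adjusted p of 0.308. Smarcb1, the core subunit lost in rhabdoid tumours, gave -0.21 (adjusted p = 0.339) and Smarce1, which binds DNA, gave -0.19 (adjusted p = 0.405). Smarcc2 has a start-site peak in the table under the symbol Mir8105, a microRNA gene; it gave -0.23 with an adjusted p of 0.568.

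The actin-related subunit comes as Actl6a in dividing cells and Actl6b in neurons. Actl6b held 85.7, 74.9 and 79.7 in MG and 57.5, 88.7 and 94.2 in BMDM, and the groups overlapped (0.24, adjusted p = 0.972). Per kb of peak, the main promoter peak of Actl6a was at 1082 in MG and 1070.2 in BMDM, the highest of the members in MG, and that of Actl6b was at 79.5 and 86.1. In both cell types the order was the same, with an open promoter at Actl6a and little signal at Actl6b.

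Dpf1, a double PHD finger subunit that reads acetylated histone tails in neuronal BAF, was the member with the most negative gene value. It held 631, 845 and 705 in MG and 244, 375 and 329.7 in BMDM, a relative difference of -0.94 ± 0.28 (SE) with an adjusted p of 0.0206. All 3 MG libraries were above all BMDM libraries, and MG was 2.30 times BMDM as a ratio of means. The call was lost without MG 3 (adjusted p = 0.0651), BMDM 1 (0.121) or BMDM 2 (0.102), and with libraries scaled to their totals (0.0969) or by cyclic loess (0.0717).

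Of the 5 Dpf1 peaks, 2 over annotated starts passed the threshold. The peak over the printed promoter (chr7:29303542-29304273) held 230.1, 309 and 257 in MG and 65.5, 77.1 and 79.7 in BMDM (-1.69 ± 0.29, adjusted p = 0.0260). A peak at a start inside the gene (chr7:29307495-29308308) held 229, 338 and 271 against 81.3, 144 and 125 (-1.14 ± 0.33, adjusted p = 0.0472). MG 2 was the highest library at both and BMDM 1 the lowest. A further 2 peaks were higher in MG without overlap and did not pass, and the peak at chr7:29309359-29309729 overlapped, at 0.33. With the promoter class left out, which takes 4 of the 5 peaks, the gene gave -0.54, with an adjusted p of 0.245.

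Dpf2, which is broadly expressed, had 1 peak, over its start, with a relative difference of 0.01 and an adjusted p of 0.850. Dpf3, the other neuronal and muscle form, had 8 peaks summing to 961, 903 and 824 in MG and 645, 570.0 and 507 in BMDM. Its groups did not overlap, but at -0.38 ± 0.27 (SE) the adjusted p was 0.164. Whether the 3 paralogs differed from each other was not tested.

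Summed levels of genes that mark neurons and glia were higher in every MG library than in every BMDM library. The neuronal list (17 of 20 genes in the table) summed to between 6250 and 7439 in MG and 3767 and 4264 in BMDM, with 3 genes called higher in MG and 0 in BMDM. The astrocyte and oligodendrocyte list (17 of 20) summed to between 12530.1 and 24108 in MG and 8310 and 9657 in BMDM, with 7 called higher in MG and 1 in BMDM, and MG 2 was highest. No marker in either list was at 0 in a library. Their part in the values of Dpf1, Dpf3 and Smarcd3 was not tested.

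The ARID subunits Arid1a and Arid1b, which direct BAF to DNA, had many peaks. Arid1b summed to 3093, 2184 and 2125 in MG and 1859, 2076 and 1424 in BMDM, which did not overlap but gave only -0.19 with an adjusted p of 0.423. An intronic peak of Arid1b (chr17:5017077-5017836) was called higher in BMDM, with 7.14, 10.9 and 8.75 in MG and 31.7, 62.8 and 50.7 in BMDM (2.41 ± 0.45, adjusted p = 0.0281). Its main promoter peak leaned the other way (-0.54, adjusted p = 0.279), so gene and intron differed in sign. Arid1a (0.03, adjusted p = 0.725) had overlapping groups and changed sign to -0.15 under cyclic loess.

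The small Bcl7 subunits bind the BAF core. Bcl7c held 1224, 1168 and 1101 in MG and 845, 785 and 469 in BMDM, with no overlap (-0.51 ± 0.29, adjusted p = 0.130). It was called higher in MG with libraries scaled to their totals (adjusted p = 0.0398) or by cyclic loess (0.0380). Bcl7a gave -0.33 (adjusted p = 0.223) and Bcl7b 0.05 (adjusted p = 0.734). Ss18, a subunit best known from the fusion in synovial sarcoma, gave 0.01 for the gene (adjusted p = 0.634). A single intergenic peak annotated to Ss18, 125714 bases from its start and so outside the gene sum, held 12.7, 15.9 and 20.4 in MG and 41.7, 80.3 and 61.6 in BMDM (1.95 ± 0.40, adjusted p = 0.0328). Ss18l2 held 899, 755 and 724 in MG and 871, 681 and 418 in BMDM, which overlapped (-0.06, adjusted p = 0.556).

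Bcl11b is a zinc finger protein that joins BAF and is required for the T cell lineage. Its 11 peaks summed to 104, 335 and 225 in MG and 327, 546 and 408 in BMDM, a relative difference of 1.34 ± 0.37 (SE) with an adjusted p of 0.104. MG 1 was far below the other libraries and MG 2 lay just above BMDM 1, so the groups overlapped. Without MG 2 the gene was called higher in BMDM (1.72, adjusted p = 0.00115, in a fit where the variance shared across genes took nearly all weight), with all 3 BMDM libraries then above both remaining MG libraries.

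Inside the gene, 3 intronic peaks of Bcl11b passed the threshold. The peak at chr12:107921275-107921903 held 1.59, 19.7 and 12.6 in MG and 63.5, 90.7 and 56.2 in BMDM (3.09 ± 0.70, adjusted p = 0.0389). At chr12:107971291-107971593 MG held 0.793, 6.56 and 4.86 and BMDM 29.8, 31.1 and 30.8 (3.01 ± 0.71, adjusted p = 0.0426). At chr12:107992813-107993711 MG held 11.9, 24.1 and 19.4 and BMDM 43.6, 96.5 and 61.6 (1.92 ± 0.43, adjusted p = 0.0396). All were low peaks, and MG 1 held fewer than 3 reads at the first 2, so no fold is given. The peak at chr12:108003844-108004292, 242 bases upstream of the nearest start in the annotation, covers the 5′ end of the RefSeq gene model. It held 5.55, 27.9 and 27.2 against 53.6, 89.4 and 56.2 and did not pass (2.04, adjusted p = 0.0734). No peak lay over the printed Bcl11b window, which is set at another start.

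The list of T, NK and B cell genes, without Bcl11b, held 11 genes in the table, which summed to between 4609 and 5645 in MG and 4304 and 6974 in BMDM, so the sums overlapped. Gene by gene, the list leaned to BMDM, with a median relative difference of 1.361, beside 1.34 for Bcl11b itself. Nkg7 and Lef1 were called higher in BMDM, and no gene was at 0 in a library. The groups did not overlap for 6 of the 11 with BMDM higher, against 6.87% of all genes. The part of this list in the Bcl11b values was not tested. Bcl11a, the paralog known from B cells and from silencing of fetal globin, gave 0.36 with an adjusted p of 0.891, and its groups overlapped.

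The PBAF subunits set that complex apart from BAF. Brd7, a bromodomain subunit, was higher in all MG libraries but did not pass (-0.37 ± 0.28, adjusted p = 0.191). Arid2 (-0.13, adjusted p = 0.474) and Phf10 (0.17, adjusted p = 0.900) overlapped. Pbrm1, with its row of bromodomains, held only 35.7 to 55.4 in MG and 41.7 to 72.5 in BMDM, because the peak over its start is annotated to the neighbouring gene Gnl3. That peak held 1391, 663 and 955 in MG and 1289, 998 and 603 in BMDM, which overlapped (0.07, adjusted p = 0.944). Counted to Pbrm1 it brought the gene from 0.58 to 0.23.

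The ISWI ATPases differ in where they are used: Smarca5 is broad, and Smarca1 is known from the nervous system. Smarca5 held 1569 to 2042 in MG and 909 to 1821 in BMDM (-0.13, adjusted p = 0.495). Smarca1 had 1 peak, with 16.7, 39.4 and 27.2 in MG and 7.93, 19.4 and 30.8 in BMDM, which overlapped (-0.33 ± 0.63, adjusted p = 0.607) and turned to 0.26 without BMDM 1. Per kb, its peak was at 35.0 in MG and 24.5 in BMDM, the lowest main promoter peak of the members in both groups. Smarcad1, an ATPase of heterochromatin upkeep, did not overlap with MG higher (-0.34, adjusted p = 0.207), and Smarcal1, which rewinds DNA at stalled forks, overlapped (0.09, adjusted p = 0.739).

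Chd4, the main ATPase of NuRD, was also called higher in MG. As annotated it held 954, 943 and 802 in MG and 460.2, 365 and 366 in BMDM (-0.91 ± 0.27, adjusted p = 0.0182), with no overlap. The call was lost without MG 3 (adjusted p = 0.0544), BMDM 1 (0.0569) or BMDM 2 (0.144). It rested on peaks outside the main start site. The peak at chr6:125088405-125090469 held 585, 699 and 570.5 in MG and 234, 192 and 197 in BMDM (-1.43 ± 0.28, adjusted p = 0.0260).

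That peak lies between genes, 5511 bases from the Chd4 model and 2276 bases from Lpar5, a receptor for lysophosphatidic acid. Lpar5, named here after its values were seen, gave -0.01 over its own 4 peaks (adjusted p = 0.565), with 502, 534 and 456 in MG and 446, 438 and 348 in BMDM. The peak over the printed Chd4 promoter (chr6:125095124-125097463) is annotated to Mir7045, a microRNA gene. It held 1444, 830 and 978 in MG and 962, 690.2 and 618 in BMDM, which overlapped (-0.37, adjusted p = 0.413). With that peak counted to Chd4, a choice made after the annotation was seen, the gene held 2397, 1773 and 1779 against 1422, 1055 and 984 (-0.52 ± 0.30) and the call ended, at an adjusted p of 0.135. The peak over the Chd4 start site did not pass the test in its own right.

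Of the other NuRD ATPases, Chd3 overlapped as a gene (-0.03, adjusted p = 0.563), but a peak over one of its annotated starts (chr11:69364670-69365374) was called higher in MG, with 159, 192 and 146 against 67.4, 53.1 and 72.5 (-1.22 ± 0.30, adjusted p = 0.0336). The main promoter peak of Chd3, with 282 per kb in MG and 228 in BMDM, gave -0.15 (adjusted p = 0.634). Chd5, the neural member, had no peak over its RefSeq start windows and gave 0.42 for the gene (adjusted p = 0.771). Its highest promoter-class peak, 1584 bases from the nearest annotated start, was at 89.5 per kb in MG and 54.1 in BMDM.

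Chd7, an ATPase of enhancers whose loss causes CHARGE syndrome, had 65 peaks, the most of any member, of which 51 entered its sum. The sum held 9566, 8836 and 7784 in MG and 9841, 8901 and 6163 in BMDM and overlapped (0.17, adjusted p = 0.923), but peaks within it differed in both directions. An exonic peak (chr4:8810958-8811549) held 30.1, 63.4 and 48.6 in MG and 183, 265 and 134 in BMDM (2.15 ± 0.38, adjusted p = 0.0268). An intronic peak beside it (chr4:8812039-8812720) held 30.9, 40.4 and 44.7 against 145, 192 and 111 (2.03 ± 0.33, adjusted p = 0.0260). A peak near an annotated inner start (chr4:8857499-8858093) held 91.2, 83.1 and 51.5 against 218, 228 and 170.3 (1.60 ± 0.33, adjusted p = 0.0339). All were higher in every BMDM library, 121 to 167 kb into a gene model of 178 kb.

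The Chd7 start leaned to MG. Its promoter peak held 1494, 967 and 1006 in MG and 605, 620 and 460.2 in BMDM, without overlap, at -0.89 ± 0.33 (adjusted p = 0.0846). Over the locus, 12 peaks did not overlap with BMDM higher and 6 with MG higher, against the 16.7% and 12.3% of all peaks. The signs cancelled in part in the sum, and the gene value of Chd7 was near that of the median gene.

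Chd9, its relative, held 5743, 4797 and 4874 in MG and 4213, 3298 and 2569 in BMDM, with no overlap (-0.37 ± 0.37, adjusted p = 0.336). With libraries scaled by cyclic loess it was called higher in MG (-0.63, adjusted p = 0.0221). Of its 30 peaks 7 did not overlap with MG higher and 0 with BMDM higher, against 12.3% and 16.7% of all peaks. Chd8 (0.02, adjusted p = 0.666), known from autism, and Chd6 (-0.06, adjusted p = 0.524) overlapped. Chd1, which acts with elongating polymerase, gave -0.11 (adjusted p = 0.509) and Chd2 gave 0.35 (adjusted p = 0.918), both with overlap.

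The INO80 genes had open promoters in both groups. The ATPase gene Ino80 gave 0.02 (adjusted p = 0.685), and its main promoter peak held 832 per kb in MG and 676 in BMDM. Ino80b, Ino80d and Ino80e lay between 0.10 and 0.14 with overlap, and Ino80c did not overlap with MG higher (-0.25, adjusted p = 0.314). Ino80dos had 3 peaks that summed to 255, 107 and 183 in MG and 279.7, 287 and 201 in BMDM (0.83, adjusted p = 0.353), where reads cannot be assigned to a strand.

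Most members had an open promoter in both cell types. Of 43 members with a promoter-class peak in the table, the highest such peak overlapped a called peak in all 6 libraries' lists for 31. Their median signal was 415 normalized counts per kb in MG and 348 in BMDM, from 35.0 (Smarca1) to 1082 (Actl6a) in MG. In this order Actl6a, Chd2, Bcl7b and Smarca4 were at the top in MG and Pbrm1, Bcl11b and Smarca1 at the bottom, and the start-site peaks of Pbrm1 and Chd4 are not in this order since they carry another symbol. No peak lay over the RefSeq windows of Chd5, Phf10 and Bcl11b, so their places rest on peaks near other annotated starts. Actl6a (1082 ± 318, SD, n = 3) and Chd2 (1082 ± 385) did not differ beyond their spread. Without Smarcd3, the groups did not overlap for 9 of 42 such peaks with MG higher (Bcl7c, Chd7, Smarcd1, Smarcb1, Smarcad1, Arid1b, Smarce1, Dpf1 and Dpf3) and for 1, that of Bcl11b, with BMDM higher, against 18.6% and 9.71% of all promoter-class peaks. That base takes every promoter-class peak and not the highest of each gene, so it is not matched to the 42.

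Peak calls were compared by overlap of at least 1 base with the authors' lists, called separately in each library. Of the 356 member peaks 70 (19.7%) were in all 6 lists, against 16.8% of all peaks. In all MG lists and no BMDM list were 19 (5.34%, against 5.08%), and in all BMDM lists and no MG list 0, against 0.0883% of all peaks. The lists held 17741 to 70739 peaks and member peaks in a list numbered 73 in BMDM 3 to 263 in MG 2, and BMDM 1 and BMDM 3, with the fewest reads, had the shortest lists. The part of depth in these patterns was not tested.

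Member peaks lay in introns in 38.2% (136), against 32.7% of all peaks, in promoters in 27.0% (96) against 30.0%, and between genes in 24.7% (88) against 29.2%. Without Smarcd3, the groups did not overlap at 17 of 91 promoter-class peaks with MG higher and 9 with BMDM higher, against 18.6% and 9.71% of all promoter-class peaks. At intronic peaks they did not overlap at 8 of 136 with MG higher and 21 with BMDM higher, against 8.26% and 20.6%.

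A spread inside MG ran through many member peaks. MG 2 was at least 3 times MG 1 at 70 of 356 (19.7%, against 21.0% of all peaks), and MG 3 lay between them at 67. Of the 70, 61 had a mean normalized count of at least 10, and 2 passed the test. Among the 327 peaks tested outside Smarcd3, 4 were called higher in MG and 8 higher in BMDM. MG 1 was at least 3 times MG 2 at 6. An exonic peak of Smarcc1 (chr9:110205411-110206424) held 19.0, 321 and 146 in MG 1 to 3 and 17.9, 13.6 and 38.0 in BMDM. A peak near Brd7 (chr8:88374547-88375765) held 21.4, 272 and 122 against 11.9, 22.0 and 34.4. At these peaks MG 1 sat with BMDM and MG 2 far above, so that large mean differences (-2.02 and -1.92) did not pass (adjusted p = 0.151 and 0.137). The astrocyte and oligodendrocyte sums had the same order, MG 2 over MG 3 over MG 1, and the part of such cells in these peaks was not tested.

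**Figure D4:**
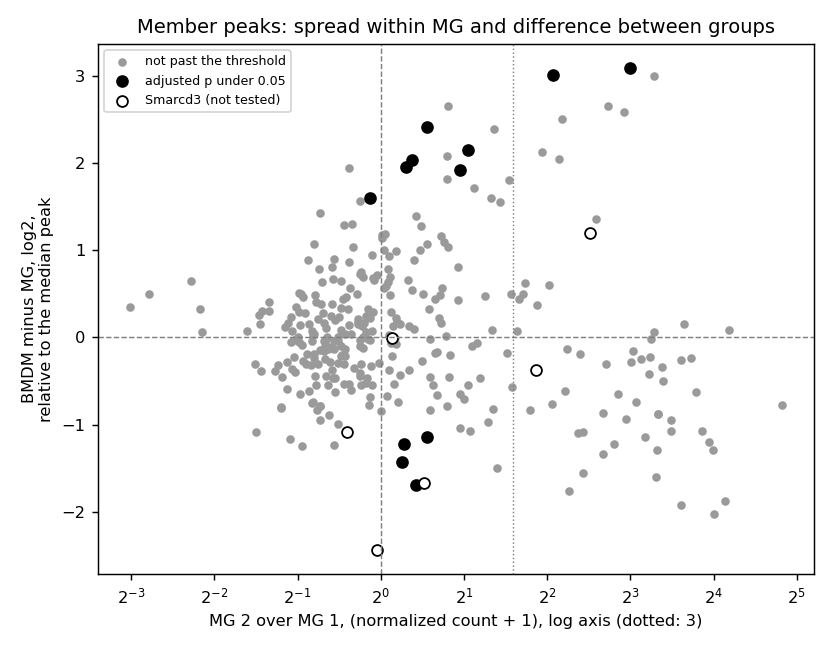
Each tested member peak, with the ratio of MG 2 to MG 1 (normalized count + 1, log axis, dotted line at 3) against the difference between groups (BMDM minus MG, log2, relative to the median peak). Of 61 points at or right of the dotted line 42 are below 0, and 2 of the called peaks (filled black) lie there, both in Bcl11b. MG 2 is part of both axes, so no conclusion is drawn from the number below 0.

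Other genes of remodelling complexes, which the symbols did not take, were listed for comparison with earlier results known. Of 53 listed, 49 were in the table (Ruvbl2, Tfpt, Znhit1 and Pole3 were not). Calls higher in MG numbered 2 and calls higher in BMDM 0, against 3.51% and 2.14% of all genes. At an unadjusted p under 0.05 the numbers were 8 and 0, and the share of all genes at that level is not given here. Mcrs1, a subunit of INO80, held 594, 555 and 570.5 in MG and 274, 255 and 196 in BMDM (-0.99 ± 0.27, adjusted p = 0.0145). Cecr2, an ISWI partner, held 804, 306 and 478 against 167, 256 and 205 (-0.98 ± 0.34, adjusted p = 0.0422). MG was higher at both without overlap, and MG 1 was far the highest at Cecr2. Both calls were lost without MG 3, BMDM 1 or BMDM 2, that of Cecr2 also without BMDM 3, and adjusted p values over all settings ran from 7.3e-05 to 0.102 for Mcrs1 and from 1.3e-04 to 0.430 for Cecr2. None of the 12 NuRD genes in that list passed, with 2 at an unadjusted p under 0.05, so the partners of Chd4 showed no called difference by limma.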

How the data were processed

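Open chromatin was measured in 6 ATAC-seq libraries, 3 of MG and 3 of BMDM, grouped by their labels. The authors used, per the submitters' processing notes, DESeq2 1.36.0, ChIPseeker 1.32.1, MACS2 2.1.1.20160309, Bowtie2 2.4.1 and cutadapt 1.8.1 on mm10. Settings, duplicate removal and a shift of reads for Tn5 are not stated. A peak's gene is therefore the annotation's nearest start, which can give a member's start-site peak to a neighbour.

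The authors deposited a table whose library columns are variance-stabilized log2 values and whose fold change columns, per the file headers, are log2 as well. The deposited table also gives a mean normalized signal and a p-value and adjusted p-value per peak. The deposited peak lists hold the authors' fold enrichment, signal score and −log10 p and q per peak, and were used only for overlap. The table holds 8 more per-sample columns that fit no label, and these stayed out. Its 93084 lines gave 92864 annotated peaks, after 155 repeats of a peak and 65 peaks without annotation were dropped.

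The stabilization was inverted to normalized counts, whose means differed from the deposited means by at most 0.000237%. Times the size factor they were whole reads within 0.02 for at least 99.9989% of peaks. In R 4.3.3, limma 3.58.1 modelled log2(normalized count + 1) with an intensity trend and group as the only term, for all genes or peaks with a mean of at least 10. This scale understates changes of low peaks. All 44 members and 333 of their 356 peaks passed this filter. Tables and plots used Python 3.11.15 with pandas 2.3.3 and matplotlib 3.10.9. The test was checked on simulated data. Alternatives were other scalings, a pseudocount of 4, no filter, other windows, a replicate block, leaving out each library, and start-site peaks counted to the member whose RefSeq start they cover (chosen after seeing the data).

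Members and lists were chosen with earlier results of these data known. Every member could be named; values of each library were to be given for members and peaks past the threshold (at most 3 a gene), for Smarcd3 and for the member of each paralog family with the largest difference. Replicate numbers were not taken to pair libraries, since deviations of same-numbered libraries correlated at 0.435, -0.0616 and 0.360.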

Additional observations from a re-analysis of the deposited data

How the results depend on the processing

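The calls of Dpf1 and Chd4 were lost without MG 3, BMDM 1 or BMDM 2 and held without MG 1, MG 2 or BMDM 3. Members called higher in MG ranged from 0 to 2 when 1 library was left out, and those higher in BMDM from 0 to 1. For peaks the ranges were 0 to 38 and 0 to 24, and for the other remodelling genes called higher in MG 0 to 5. Over all peaks they were 0 to 11278 and 0 to 10603, and over all genes 0 to 2246 and 0 to 730. Without MG 1, MG 2 or MG 3 the variance shared across genes took nearly all weight, so those counts hardly use each gene's own spread. That limit holds for the calls of Dpf1 and Chd4 lost without MG 3 as well as for those that held. With cyclic loess 11 peaks were called higher in MG and 16 in BMDM, and with library totals 13 in BMDM. Over all peaks the numbers were 2305 and 6950 with cyclic loess, and 6994 in BMDM with library totals. Over peaks outside the promoter class 1 member was called, and with start-site peaks reassigned 1. For the other remodelling genes 1 was called with library totals, with cyclic loess or outside the promoter class. With the replicate block 19 peaks were called higher in MG and 20 in BMDM, 4 member genes higher in MG and 1 in BMDM, and 5 other remodelling genes higher in MG. Over all 87944 peaks the block called 5215 higher in MG and 9212 in BMDM. Over all 18246 genes it called 2333 and 912. The block added calls for Smarcd1, Bcl7c and Bcl11b (adjusted p = 0.0196, 0.0170 and 0.00186). In its gene fit too the variance shared across genes took nearly all weight, so its gene calls hardly use each gene's own spread. Nor were the replicate numbers shown to pair libraries: MG 2 correlated best with BMDM 3 (0.422), not with its own number. Scaling moved the median gene from -0.27 to -0.08 (totals) and -0.03 (loess). Relative to it, Arid1a, Chd3, Chd7, Chd8, Ino80, Smarca2 and Ss18 changed sign with loess, each within 0.23 of 0. With 1 library left out, Smarca1 ranged from -0.89 (BMDM 3) to 0.26 (BMDM 1), Actl6b from -0.045 (BMDM 3) to 0.55 (BMDM 1) and Ss18l2 from -0.21 (BMDM 1) to 0.0804 (BMDM 3). The direction also reversed for Smarcd3 outside the promoter class (1.18, where 1 low peak is left); the cause was not tested beyond these constructions. The median peak held 20 reads in BMDM 1, which limits the precision at low peaks.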
